A study of Mus musculus with 2 samples.

Results

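The contractile genes of fast and slow skeletal muscle fibres were followed in brown adipose tissue, the heat-producing fat of mice. They were the 10 genes of the deposited table with the symbols Tnni1, Tnnt1, Tnnc1 and Myl2 (slow forms), Tnni2, Tnnt3, Tnnc2, Myl1 and Mylpf (fast forms) and Acta1, which both fibre types use. All 10 were found, in 18 of 14189 table rows, each an assembled transcript, among 10761 usable gene symbols. They were selected on the ratio of their FPKM and scaled counts between the libraries, together with their function, so the levels and ratios below are a description and carry no test.

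Skeletal muscle contracts when myosin heads pull on thin filaments of actin. The troponin complex on the thin filament is the calcium switch: troponin C binds calcium, troponin I blocks contraction at rest, and troponin T ties both to tropomyosin. Myosin carries light chains, of which the essential chains stiffen the lever arm and the regulatory chains tune the force. Fast and slow fibres build the same machine from separate genes, so slow and fast forms can be set against each other within a library. Brown adipocytes and skeletal muscle come from related embryonic precursors, but a mature brown adipocyte has no sarcomere.

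Both groups were male C57BL6/J mice aged 8 to 12 weeks kept for 10 days on a diet in which fat supplied 60% of the calories. The SML group also received SML intraperitoneally at 5 mg per kg body weight, and the HFD control group did not. The series title names sesaminol, whereas the labels give only SML, which is kept here. There was 1 poly(A) RNA library per group, with 8502882 fragments for SML and 12001311 for HFD control in the deposited table, and the sources used here do not give how many animals or depots it holds. Every difference therefore compares 2 libraries and has no replicate check. Levels are FPKM (the deposited unit, a fragment number corrected for transcript length and library depth). Folds are ratios of the deposited scaled counts with a 95% exact interval, which covers counting error only, neither the spread between animals nor PCR duplicates.

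All 10 genes were lower in the SML library. A gene was counted as lower when its log2(FPKM + 1) differed by at least 1.5-fold, which 10 of 10 members reached, against 5.74% of the 9870 genes that averaged at least 1 FPKM. None was higher by the same rule (0 of 10), against 5.45% of all genes. The median difference of the members on that scale was -3.80, beside 0 for all genes. At 2-fold or more 10 of 10 members were lower, against 1.97% of all genes, and at 8-fold or more 9 of 10, against 0.385%. Because the ratio guided the choice of members, these shares say nothing about genes outside the list. The 10 genes summed to 372.3 FPKM in the SML library, which was 0.0472% of its total FPKM, against 3797 FPKM or 0.454% in the HFD control library. Among all genes ordered from the lowest difference, Tnni1 stood at place 4, Tnni2 at 6, Acta1 at 7 and Mylpf at 9. The 3 genes below Tnni1 were small RNA genes with 0 fragments in SML and 1 in HFD control. Myl1 stood at place 153. In a tissue sample fewer muscle fibres and less RNA per fibre cannot be told apart.

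**Figure D1:**
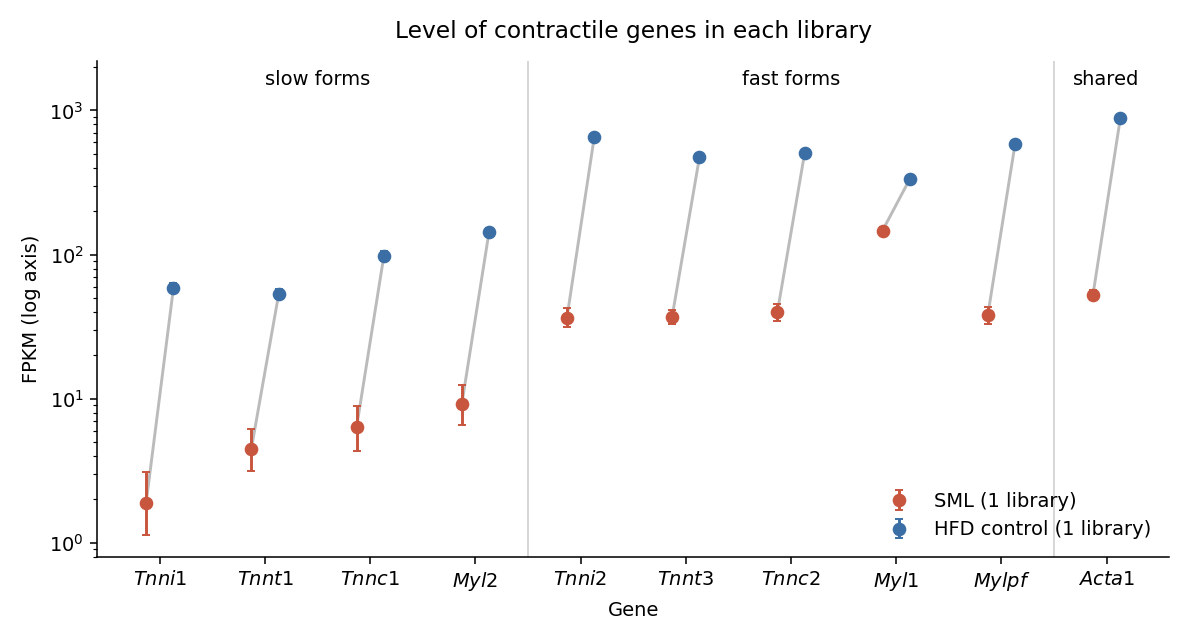
FPKM of each contractile gene (log axis) in the SML library (left point) and the HFD control library (right point), 1 library per group, with 95% counting intervals as bars. Slow forms stand on the left, fast forms in the middle and Acta1 on the right, and Myl1 at 146.8 FPKM in SML and 335.6 in HFD control has the flattest line.

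Acta1, at chr8:123891769-123894751 (GENCODE M21, GRCm38), encodes the alpha-actin of the skeletal thin filament. It had 52.5 FPKM in the SML library (664 fragments) and 880.7 FPKM in the HFD control library (15192 fragments). That was 16.8-fold lower (15.6 to 18.2). It was the most abundant of the 10 genes in HFD control, at rank 191 of all genes, and stood at rank 1561 in SML. Of the 50-base words in its coding transcripts, 2.02% also occur in other actin genes or pseudogenes.

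Troponin I, the inhibitory subunit, showed the largest folds. Tnni1, the slow form (chr1:135779434-135810989), had 1.90 FPKM in SML from 17 fragments and 58.9 FPKM in HFD control from 708 fragments. It was 31.2-fold lower (19.0 to 52.9), and the width of that interval follows from the 17 fragments. Tnni2, the fast form (chr7:142441808-142444410), had 36.5 FPKM in SML and 655.4 FPKM in HFD control, which was 18.1-fold lower (15.5 to 21.2). The intervals of both forms overlapped, which does not settle whether their folds differ. Set directly against each other, the Tnni1:Tnni2 ratio in SML was 0.591 times that in HFD control (0.334 to 0.982, counting error only).

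Troponin T anchors the complex to tropomyosin. Tnnt1, the slow form (chr7:4504570-4516382), had 4.50 FPKM in SML and 53.1 FPKM in HFD control, a level 11.9-fold lower (8.5 to 17.0). Tnnt3, the fast form (chr7:142498836-142516009), had 37.1 FPKM in SML and 475.2 FPKM in HFD control, a level 12.9-fold lower (11.4 to 14.5). These were the 2 smallest folds of the members other than Myl1, and the intervals of both forms again overlapped. The deposited table gives Tnnt3 the same locus coordinates as its upstream neighbour Lsp1, a leukocyte gene that was chosen here after its values were seen and had 13.7 FPKM in SML and 18.5 in HFD control.

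Troponin C is the calcium sensor. Tnnc1, the form of slow and cardiac muscle (chr14:31208312-31211729), had 6.32 FPKM in SML and 98.2 FPKM in HFD control, 15.7-fold lower (11.0 to 23.1). Tnnc2, the fast form (chr2:164777161-164779967), had 39.7 FPKM in SML and 508.2 FPKM in HFD control, 12.9-fold lower (11.2 to 14.9). In GENCODE M21 592 of the 800 exonic bases of Tnnc2 overlap Ube2c, a cell cycle gene on the other strand, and the library kit named in the labels is not stated to keep strand. Ube2c, named for this overlap, was listed at 2.47 FPKM in SML and 3.21 in HFD control. How fragments in the overlap were divided between both genes was not tested.

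The regulatory light chains had folds close to each other. Myl2, the slow and ventricular form (chr5:122100951-122113472), had 9.13 FPKM in SML and 144.2 FPKM in HFD control, 15.9-fold lower (11.6 to 22.5). Mylpf, the fast form (chr7:127208890-127214298), had 37.9 FPKM in SML and 587.1 FPKM in HFD control, 15.6-fold lower (13.6 to 18.0). The difference between their folds was far smaller than either interval.

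Myl1, the essential light chain of fast fibres (chr1:66924295-66945404), was the exception. It had 146.8 FPKM in the SML library from 977 fragments and 335.6 FPKM in the HFD control library from 3005 fragments. It was 2.26-fold lower (2.10 to 2.44), whereas the other 9 members were 11.9-fold to 31.2-fold lower, and its interval overlapped none of theirs. Of the 50-base words in its coding transcripts 16.0% also occur in the pseudogene Mylf-ps. For the other 8 troponin and myosin members that share was 0%. Whether fragments of the pseudogene enter the Myl1 values was not tested.

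**Figure D2:**
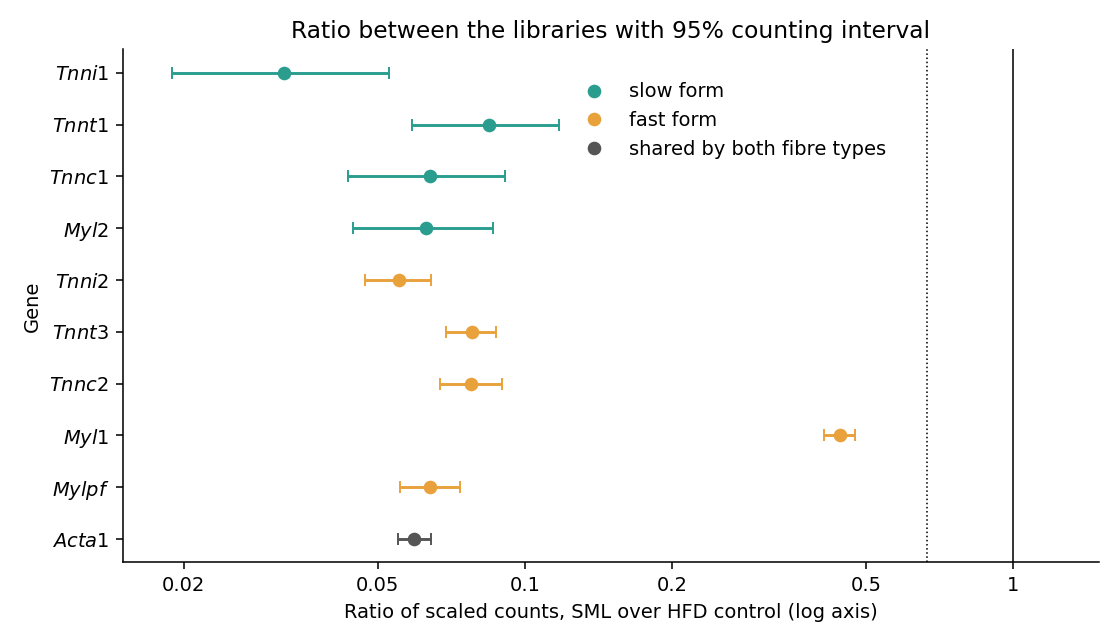
Ratio of scaled counts, SML over HFD control (log axis), for each contractile gene, with 95% exact counting intervals as bars, a solid line at 1 and a dotted line at a level 1.5-fold lower. Myl1 at 0.442 sits apart from the other 9 genes, whose ratios run from 0.0321 to 0.0844.

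The order of the genes by level was not the same in both libraries. In SML Myl1 came first at 146.8 FPKM, followed by Acta1 at 52.5 FPKM. Tnnc2, Mylpf, Tnnt3 and Tnni2 then lay between 36.5 and 39.7 FPKM, and each of them overlapped its neighbour in counting interval. Myl2, Tnnc1 and Tnnt1 followed at 9.13, 6.32 and 4.50 FPKM with overlapping neighbours, and Tnni1 came last. In HFD control the order was Acta1, Tnni2, Mylpf, Tnnc2, Tnnt3, Myl1, Myl2, Tnnc1, Tnni1 and Tnnt1, where Tnni1 and Tnnt1 were the neighbours with overlapping intervals. All fast forms were above all slow forms in both libraries. Without Myl1 the 4 fast forms spanned 1.09-fold in SML and 1.38-fold in HFD control, and the 4 slow forms 4.81-fold in SML and 2.71-fold in HFD control.

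To show promoter sequence of the members, the RefSeq window (GRCm38.p6) from 250 bases before to 50 bases after the transcript start is given for Acta1, the most abundant member in HFD control, for the slow and fast troponin C genes as a matched pair, and for Myl1, the exception. Capitals mark matches on either strand to the MCAT core (CATTCC), the TATA box (TATAAA) or the CArG box, and all else is in lower case. Each sequence reads 5′ to 3′ along the gene. The Myl1 window lies at the upstream of its annotated start regions, and how much of the Myl1 level comes from there was not tested.
Acta1: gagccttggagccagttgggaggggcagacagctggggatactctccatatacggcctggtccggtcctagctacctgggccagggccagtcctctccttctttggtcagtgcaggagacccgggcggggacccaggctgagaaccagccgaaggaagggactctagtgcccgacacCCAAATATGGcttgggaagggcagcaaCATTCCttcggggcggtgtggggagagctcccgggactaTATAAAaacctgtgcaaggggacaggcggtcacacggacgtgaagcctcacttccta
Tnnc1: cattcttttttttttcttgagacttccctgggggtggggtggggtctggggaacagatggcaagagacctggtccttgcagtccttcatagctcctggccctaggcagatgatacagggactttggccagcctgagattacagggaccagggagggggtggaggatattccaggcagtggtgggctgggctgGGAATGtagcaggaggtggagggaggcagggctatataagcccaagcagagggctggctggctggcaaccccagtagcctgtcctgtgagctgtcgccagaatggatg
Tnnc2: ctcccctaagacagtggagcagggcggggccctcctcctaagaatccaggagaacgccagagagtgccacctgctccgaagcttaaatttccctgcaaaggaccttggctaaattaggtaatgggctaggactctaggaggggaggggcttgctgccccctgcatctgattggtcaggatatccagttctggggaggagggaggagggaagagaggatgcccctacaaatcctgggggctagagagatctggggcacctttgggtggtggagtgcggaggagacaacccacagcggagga
Myl1: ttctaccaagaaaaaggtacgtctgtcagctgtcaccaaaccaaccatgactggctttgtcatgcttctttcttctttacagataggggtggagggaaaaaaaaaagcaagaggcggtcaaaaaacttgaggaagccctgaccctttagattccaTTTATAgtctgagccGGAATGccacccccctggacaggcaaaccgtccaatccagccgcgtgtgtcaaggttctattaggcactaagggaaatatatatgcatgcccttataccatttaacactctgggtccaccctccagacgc
They lie at chr8:123894726-123895025 on the minus strand (Acta1), chr14:31208062-31208361 on the plus strand (Tnnc1), chr2:164779685-164779984 on the minus strand (Tnnc2) and chr1:66945007-66945306 on the minus strand (Myl1).

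Of the 10 members 8 had a RefSeq promoter in the table used, all except Tnni2 and Tnnt3. The CArG box, the letters bound by serum response factor in muscle and early response genes, matched in the Acta1 window at -73 to -64 and in none of the other members' windows, while 1.63% of 32851 promoter windows hold it. Positions count back from the RefSeq transcript start. For Acta1 that start, at chr8:123894775, differs from the GENCODE M21 gene boundary at chr8:123894751, so its positions hold for the RefSeq start only. The MCAT core matched in Acta1, Tnnc1 and Myl1, against 14.7% of all windows, and TATAAA matched in Acta1, Tnnt1, Myl1 and 1 of the 2 Myl2 windows, against 13.6%. The E-box (CANNTG), the letters bound by the MyoD family, was present in the windows of all 8 and in 72.3% of all windows. The MEF2 site was in no member's window and in 3.19% of all. No match overlapped a match of another of these motifs. The annotated transcript starts within the Myl2 windows lie 8255 and 7790 bases from the start of the Myl2 transcript in the deposited table. A match is a run of letters and does not show that a factor binds there.

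Slow forms were then set against fast forms. The 4 slow forms summed to 21.9 FPKM in the SML library and 354.5 FPKM in the HFD control library, and by scaled counts they were 16.7-fold lower (13.9 to 20.1). The 5 fast forms summed to 297.9 FPKM in SML and 2561 FPKM in HFD control, 8.09-fold lower (7.72 to 8.49). Slow forms thus held 6.83% of the slow and fast total in SML and 12.2% in HFD control. This gap rested on Myl1. Without it, a setting chosen after its values were seen, the fast forms summed to 151.2 FPKM in SML and 2226 FPKM in HFD control and were 14.5-fold lower (13.6 to 15.6). The slow share was then 12.6% in SML and 13.7% in HFD control.

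Matched pairs compare forms that hold the same post in the complex. The Tnni1:Tnni2 ratio was 0.0521 in SML and 0.0899 in HFD control, so that the ratio in SML was 0.591 times that in HFD control (0.334 to 0.982, counting error only), with 17 Tnni1 fragments behind it. Tnnt1:Tnnt3 stood at 0.121 in SML and 0.112 in HFD control, a quotient of 1.08 (0.741 to 1.55). For Tnnc1:Tnnc2 the values were 0.159 in SML and 0.193 in HFD control, a quotient of 0.823 (0.543 to 1.21). Myl2:Mylpf gave 0.241 in SML and 0.246 in HFD control, a quotient of 0.980 (0.675 to 1.39). The interval included 1 for 3 of the 4 pairs, which leaves room for differences of up to the interval's ends.

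Myosin pairs with genes outside the members bracket the exception. Myl3, the slow essential light chain, stood to Myl1 at 0.0294 in SML and 0.217 in HFD control, a quotient of 0.133 (0.0887 to 0.194). Myh7, the slow heavy chain, stood to the sum of the fast heavy chains Myh1, Myh2 and Myh4 at 0.106 in SML and 0.130 in HFD control, a quotient of 0.812 (0.536 to 1.19). Myh4, the most abundant of these heavy chains, had 4.01 FPKM in SML and 44.3 FPKM in HFD control, 11.0-fold lower (9.66 to 12.7). The interval of the heavy chain quotient overlapped those of the 4 member pairs, and that of the essential light chain quotient overlapped none of them.

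**Figure D3:**
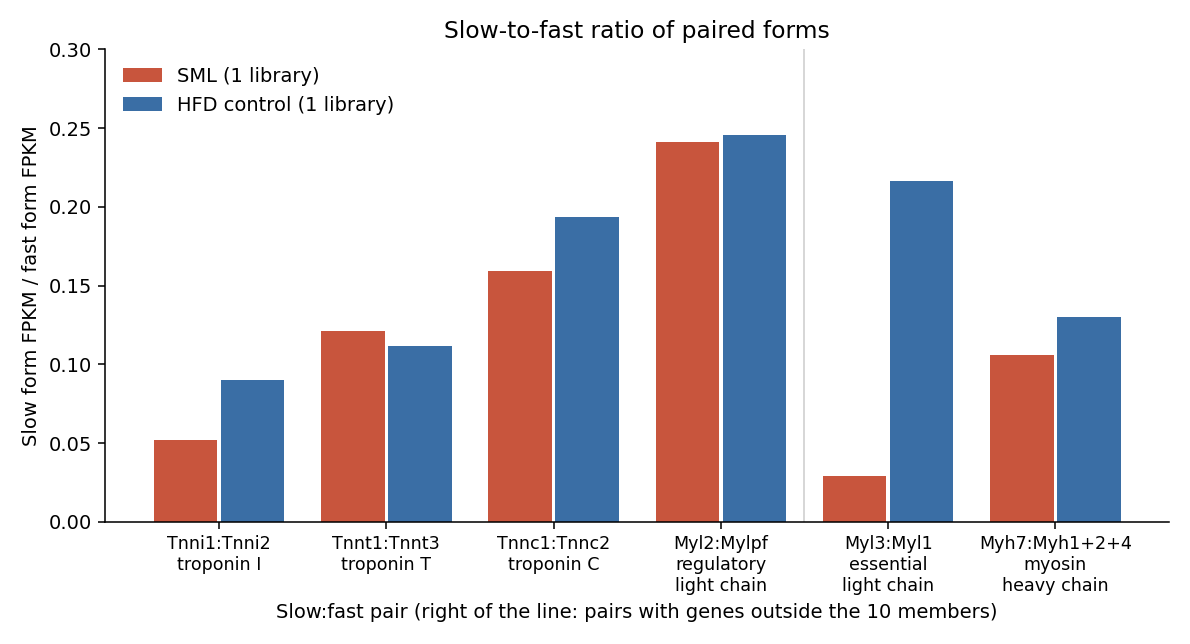
Ratio of slow-form FPKM to fast-form FPKM for each pair, in the SML library (left bar) and the HFD control library (right bar), 1 library per group and no error bars. Of the 4 member pairs left of the grey line Tnni1:Tnni2 differs most, at 0.0521 in SML and 0.0899 in HFD control, and Myl3:Myl1 to the right of it stands at 0.0294 in SML and 0.217 in HFD control.

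Transcript rows within a gene could be followed for Myl1, Tnnt1, Tnnt3 and Acta1. Fragments are divided between overlapping transcripts by estimation, and the intervals do not cover that step. Myl1 makes a longer and a shorter light chain from separate promoters, and the table held 2 Myl1 rows. The more abundant row had 106.0 FPKM in SML and 262.6 FPKM in HFD control, 2.49-fold lower (2.28 to 2.72), and the other had 40.8 FPKM in SML and 73.0 FPKM in HFD control, 1.8-fold lower (1.58 to 2.06). The small fold of Myl1 was thus present in both of its rows. Their ratio of count to FPKM corresponded to lengths of about 832 and 1009 bases. The scale was set with 1013 of 1459 genes that have a single transcript, after those far from the fitted line were left out. Neither length settles which GENCODE transcript the row is.

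The 5 Tnnt3 rows were not equally low. The largest, with 51.0% of the gene's FPKM in HFD control and 56.2% in SML, was 11.7-fold lower (9.96 to 13.7). The row with the smallest share in HFD control was 4.28-fold lower (2.56 to 7.95) at 1.92 FPKM in SML from 16 fragments and 8.19 FPKM in HFD control, and the other 3 rows were 14.2-fold to 24.2-fold lower. Of the 3 Tnnt1 rows, the first was 7.94-fold lower (5.38 to 12.1) and the second 21.1-fold lower (11.0 to 46.8), from 28 and 9 SML fragments. The third Tnnt1 row was listed at 0 FPKM in SML and 3.26 in HFD control. The minor Acta1 row was listed at 0 FPKM in SML and 2.61 in HFD control, so nearly the whole Acta1 signal came from its main row.

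**Figure D4:**
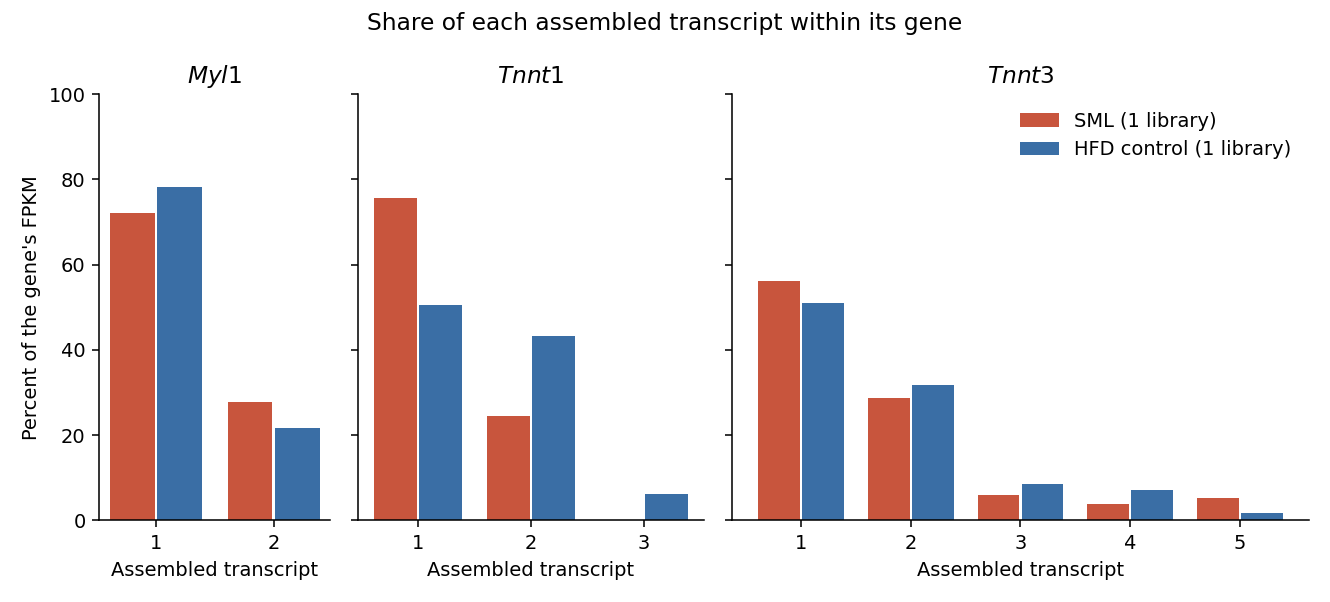
Percent of a gene's FPKM held by each assembled transcript of Myl1, Tnnt1 and Tnnt3 (numbered from the highest HFD control FPKM), in the SML library (left bar) and the HFD control library (right bar). The first Tnnt1 transcript holds 75.6% in SML and 50.6% in HFD control, and the shares of both Myl1 transcripts differ by under 10 percentage points.

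Other sarcomere genes were low in the SML library too. Of 8 further fast-fibre genes 7 had values and all 7 were lower, against 5.74% of all genes. Their median was -2.92 on the log2(FPKM + 1) scale, which shrinks differences of genes at low levels. By scaled counts they were 10.2-fold to 18.3-fold lower. Myoz1, a Z-disc protein, had 2.77 FPKM in SML and 50.5 in HFD control, and Actn3, the fast-fibre alpha-actinin, 2.88 FPKM in SML and 36.0 in HFD control. Myh2, a fast myosin heavy chain, showed the smallest difference of the list at 0.43 FPKM in SML and 4.45 in HFD control. Of 6 further slow-fibre genes 5 had values and all 5 were lower, with a median of -2.71 on the same scale. With only the row of highest mean FPKM per gene, 4 of 5 were lower, against 693 of 9832 genes. That Tpm3 row had 17.7 FPKM in SML and 9.04 in HFD control. By scaled counts Tpm3 was 1.69-fold lower and the others 14.6-fold to 25.0-fold lower. Myl3, the slow essential light chain, had 4.31 FPKM in SML and 72.7 in HFD control, Myoz2 0.42 FPKM in SML and 10.6 in HFD control, and Tpm3, a tropomyosin with non-muscle transcripts as well, 35.9 FPKM in SML and 74.7 in HFD control.

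Among 30 sarcomere genes that both fibre types use, 23 had values and 22 passed the filter, of which 20 were lower and 0 higher. The median of the 22 was -1.64 on the log2(FPKM + 1) scale. On that scale Ldb3 and Tcap, proteins of the Z-disc, led the list at 1.75 and 11.4 FPKM in SML, against 27.4 and 124.1 FPKM in HFD control. By scaled counts Ldb3 was 17.6-fold and Tcap 10.9-fold lower, with several genes of the list between them. Unc45b, a myosin chaperone, had 5.81 FPKM in SML and 5.12 in HFD control, and with Myom3, named after its values were seen, was 1 of the 2 genes past neither limit. The same size rule called 5.74% of all genes lower. Applied to scaled counts it called 19 of the 22 lower, against 818 of 9870 genes. Pdlim5, named after its values were seen, was lower by FPKM but only 1.09-fold lower by scaled counts (0.904 to 1.32). Of 9 embryonic and cardiac sarcomere genes only Myl4 had values, 8.36 FPKM in SML and 10.8 in HFD control.

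Non-muscle and smooth-muscle counterparts of these proteins stood near the bulk of genes. Of 18 measured genes 2 were lower and 0 higher, against 5.74% and 5.45% of all genes, with a median of -0.14. The 2 were the regulatory light chains Myl12a, at 99.3 FPKM in SML and 174.3 in HFD control, and Myl12b, at 118.1 FPKM in SML and 182.2 in HFD control. Cald1, caldesmon, had 5.14 FPKM in SML and 5.07 in HFD control.

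**Figure D5:**
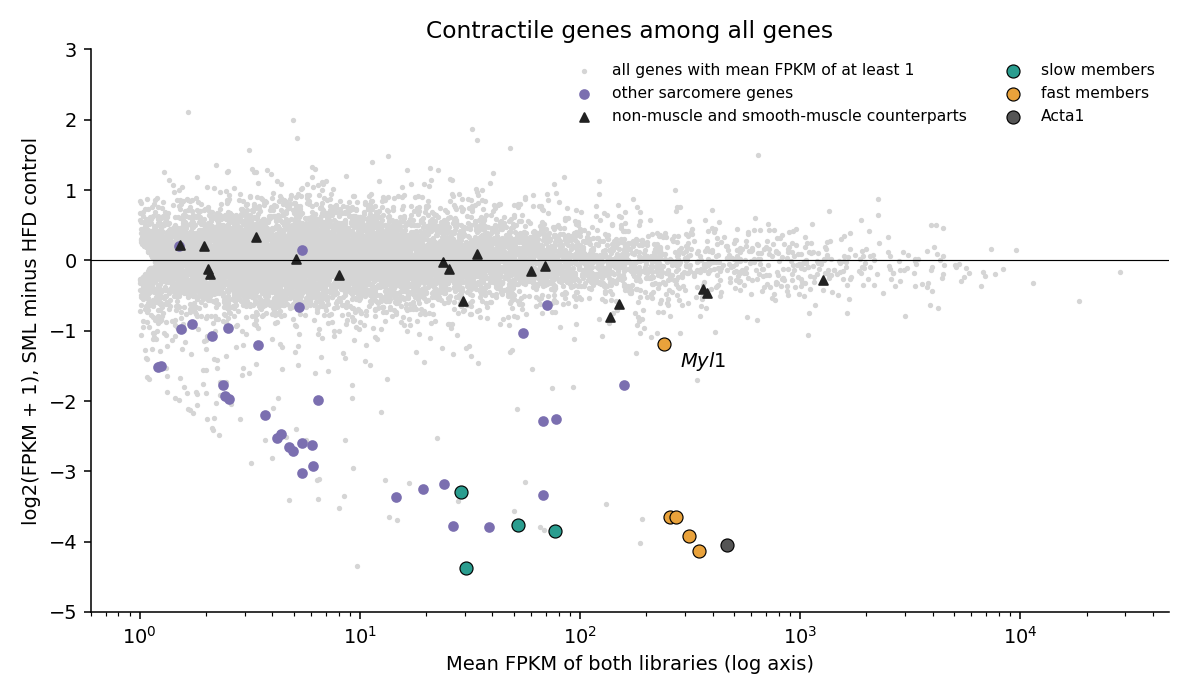
Difference in log2(FPKM + 1), SML minus HFD control, against the mean FPKM of both libraries (log axis) for the 9870 genes averaging at least 1 FPKM (8 lie outside the drawn range). The contractile members and other sarcomere genes lie mostly well below the bulk, the non-muscle counterparts lie within or near it, and Myl1 lies between.

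The 5 other genes of at least 5 FPKM on average whose difference was closest to the members' median were Cox6a2, Myl3, Atp2a1, Myoz1 and Ckmt2. Their differences lay within 0.11 of that median on the log2(FPKM + 1) scale, a likeness that rests on 2 libraries. Cox6a2 is a respiratory chain subunit of striated muscle, Atp2a1 the calcium pump of fast fibres and Ckmt2 a mitochondrial creatine kinase.

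The tissue label was checked against marker genes. All 12 brown adipocyte markers had values and 11 passed the filter, of which 0 were lower and 2 higher (Dio2 and Zic1, named after their values were seen). The same rule called 5.74% of all genes lower and 5.45% higher. Prdm16, a determinant of brown fat identity and the marker under the filter, had 0.41 FPKM in SML and 1.42 in HFD control, 3.44-fold lower (2.36 to 5.2). The list summed to 66273 FPKM in SML and 76685 in HFD control. Fabp4, a fatty acid carrier, had 26726 FPKM in SML and 30001 in HFD control, and Cox8b 14824 FPKM in SML and 22044 in HFD control. By scaled counts Cox8b was 1.52-fold lower (1.49 to 1.54), though short of the size rule on FPKM. Ucp1, named after its values were seen, had 7955 FPKM in SML and 8702 in HFD control. Skeletal muscle markers outside the contractile apparatus were lower in 11 of 12 cases, with a median of -3.29 on the log2(FPKM + 1) scale. Pvalb, the calcium buffer of fast fibres, had 26.9 FPKM in SML and 356.0 in HFD control. The exception was Cox7a1, at 10056 FPKM in SML and 9041 in HFD control, which is also in the brown adipocyte list and dominates the muscle list's sum of 10160 FPKM in SML and 10463 in HFD control. Muscle transcripts therefore differed between the libraries far beyond the contractile genes, and their part in the members' ratios was not tested.

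Markers of other cell types differed less than the muscle markers. The size rule called 5.74% of all genes lower and 5.45% higher, beside which the counts below can be read. The table as used here held values for 0 of the 8 myogenic progenitor and 0 of the 8 cardiomyocyte markers on the lists. Smooth muscle and pericyte markers had 1 of 9 lower, at sums of 95.5 FPKM in SML and 116.0 in HFD control. Their most abundant genes were Tagln, at 35.2 FPKM in SML and 33.0 in HFD control, and Acta2, at 23.5 FPKM in SML and 35.4 in HFD control. Erythroid markers had 4 of 5 lower, at sums of 1027 FPKM in SML and 1990 in HFD control, and were led by the globins Hba-a1 and Hba-a2. Macrophage markers had 5 of 8 lower, at sums of 272.0 FPKM in SML and 439.4 in HFD control, with Lyz2 and C1qb the most abundant. Endothelial markers had 1 of 6 lower, at sums of 85.1 FPKM in SML and 125.2 in HFD control, with Pecam1 and Cdh5 the most abundant. No marker in these lists was higher by the size rule, and the part of these cells in the members' ratios was not tested.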

How the data were processed

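Brown adipose tissue was measured in 1 SML and 1 HFD control library. The authors deposited FPKM and a count column per library for assembled transcripts. CASAVA 1.8, Cufflinks and the build mm10 are named, per the submitters' processing notes. The sources used here name neither aligner nor annotation release. The count columns the authors deposited are a scaled signal, not raw counts: low values moved in steps of 0.866 (SML) and 0.637 (HFD control), of which 90.3% and 90.8% were whole steps within 0.1. Dividing by the step gave fragments.

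Rows were summed by symbol, and 30 rows whose symbols had become dates were left out. Differences are log2(FPKM + 1), SML minus HFD control, over genes averaging at least 1 FPKM. With 1 library per group no test was run. Exact conditional intervals (SciPy 1.17.1) on fragments cover counting error only, and their script was tested on simulated Poisson fragments. Members and lists were chosen with earlier results of these data known. Named genes were every member, the 2 largest and the smallest difference of each sarcomere list, the 2 most abundant markers of each cell type, Myl3, Myh7 and Myh4, and the 5 genes nearest the members' median. Promoters came from RefSeq, and gene spans, lengths and shared 50-base words from GENCODE M21. No sample column was left unused. Alternatives changed the pseudocount, filter, row summing, unit, scaling, size rule, and the GC and length trend.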

Additional observations from a re-analysis of the deposited data

How the results depend on the processing

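Each of the 10 members was lower by at least 1.5-fold under each of 10 other settings of pseudocount, filter, row summing, unit, scaling and trend. That gave 100 of 100 values, and 10 of 10 also passed a 2-fold rule. Because the members were chosen on their ratio, this count describes them and is no independent check. The scaling settings moved the members little: with equal total FPKM Myl1 went from -1.19 to -1.10 on the log2 scale. The filter does not enter a member's difference, and row summing alters only genes with several rows. Those values repeat the main ones by construction and add no check. Tnni1 ranged from -4.88 to -3.21 and Myl1 from -1.30 to -1.05 on the log2 scale. The summed fast forms differed by -3.10, and by -3.22 with the highest row per symbol, -3.02 with scaled counts, -3.01 with equal total FPKM, -2.87 after removing the trend on GC content and length, and -3.87 without Myl1. Slow minus fast was -0.86, and -0.088 without Myl1, a setting added after seeing the data. Pair differences on this scale moved with the pseudocount, which by construction shrinks the lower form more: for troponin I they ran from -0.72 to 0.78 and for troponin C from -0.26 to 0.33.

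Over all genes 567 were lower and 538 higher. A pseudocount of 0.1 gave 831 lower and 847 higher, one of 5 gave 253 lower and 165 higher, no filter 1115 lower and 571 higher, a filter at 5 FPKM 305 lower and 319 higher, scaled counts 818 lower and 883 higher, and the 2-fold rule 194 lower and 66 higher. Equal total FPKM turned the split to 451 lower and 760 higher, and equal totals outside the 50 highest genes to 488 lower and 658 higher. In the sarcomere list of both fibre types 20 of 22 genes were lower, and under other settings between 8 of the 9 left by the filter at 5 FPKM and 21 of 23 with no filter, with 13 of 22 at a pseudocount of 5. No paired analysis was possible because each group has 1 library. The slow forms rest on 17 to 40 fragments each in SML, against 596 to 866 each in HFD control. The low SML numbers limit the precision of their folds.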

Other observations

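Tropomyosin genes, whose rows were looked at after their values were seen, showed opposite differences within 1 gene. The most abundant Tpm1 row in HFD control had 1.38 FPKM in SML and 149.4 FPKM in HFD control, 109-fold lower (63.8 to 196), while another Tpm1 row had 29.9 FPKM in SML and 4.58 FPKM in HFD control. For Tpm3, which encodes the slow-fibre tropomyosin and non-muscle forms, the row with the highest HFD control level was listed at 0 FPKM in SML and 22.1 in HFD control, whereas the row with the highest SML level had 17.7 FPKM in SML and 9.04 in HFD control. The main Tpm2 row had 6.41 FPKM in SML and 97.6 FPKM in HFD control, and a further row 14.6 FPKM in SML and 15.9 in HFD control. The remaining Tpm2 row went the other way, at 1.48 FPKM in SML and 0 in HFD control. The summed values of these genes therefore hide rows that differ in direction. How fragments were divided between these rows was not tested.

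Des, the intermediate filament desmin, which muscle and smooth muscle share, had 55.4 FPKM in SML and 86.2 FPKM in HFD control, 1.56-fold lower (1.47 to 1.66), a value close to that of Acta2 and far from that of the troponins. Ckm and Mb, the creatine kinase and myoglobin of muscle, had 21.1 and 20.9 FPKM in SML, against 355.2 and 241.0 FPKM in HFD control, folds of 16.9 and 11.8 that fall within the range of the 9 members other than Myl1 or just below it. Des, Ckm and Mb were chosen after their values were seen.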
